A study of Homo sapiens with 6 samples.

Results

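Non-homologous end joining is the set of reactions that rejoin the ends of a broken DNA double helix without a homologous template. The 10 genes described here encode its core: the end-binding Ku proteins (XRCC6, XRCC5), the kinase they recruit (PRKDC), the nuclease it activates (DCLRE1C), the ligase and its partner (LIG4, XRCC4), a pair of bridging proteins (NHEJ1, PAXX), and a chromatin-bound pair that protects ends from resection (TP53BP1, RIF1). They were taken by gene symbol. Each of the 10 matched exactly 1 transcript cluster (the probes of 1 locus) with a single gene symbol, out of 22411 genes with such a symbol and 67528 transcript clusters on the array.

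The samples were H460 cells, an established human non-small cell lung cancer line, measured on the GeneChip Human Transcriptome Array 2.0. There were 3 control cultures without radiation and 3 cultures given 7 Gy of radiation, which the titles call biological replicates. No other treatment, genotype or added gene is named in the labels, and both groups are the same line. How long after the dose the RNA was taken is not stated in the labels, so the values describe 1 unstated time point of 1 cell line.

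All values are log2 signals, on which a difference of 1 is a 2-fold change. Array medians over transcript clusters lay between 4.65 and 4.70, and correlations between arrays were at least 0.994. The p53 target genes were called higher on the irradiated arrays in 9 of 9 measured members (median difference 1.02). Among all genes with 1 symbol 3.65% were called higher. The largest differences of the list were those of GDF15 (2.93), TP53INP1 (2.45) and MDM2 (2.06). The list was chosen with earlier results of these data known, so it is not an independent check of the labels. Of 4 epithelial markers, the keratins KRT8 and KRT19 had signals of 10.9 and 10.1 in control cells, while EPCAM lay at 4.04, near the median of the 23 background control features (3.74). Of the 4 epithelial, 4 fibroblast and 4 blood cell markers measured, limma called 0 in each list, and so did its trended and unmoderated forms. At an unadjusted p under 0.05 there were 2, 1 and 1, counts for which no share over all genes is given here. Among all genes with 1 symbol 9.18% were called, so 0 of 4 is near that share. In control cells COL1A1 and COL1A2 had signals of 6.47 and 5.36, and DCN and LUM 2.86 and 3.29. CD14, CD79A and CD3E had 6.18, 5.83 and 5.08, and PTPRC 2.86. The fibroblast markers differed by -0.02 (COL1A1), 0.00 (COL1A2), 0.12 (DCN) and 0.15 (LUM). The blood cell markers differed by -0.17 (CD14), -0.04 (CD79A), 0.04 (PTPRC) and 0.06 (CD3E).

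In the cell, Ku is a ring of 2 related subunits that threads onto a free DNA end and serves as the landing platform for the other factors. The kinase DNA-PKcs joins Ku to form DNA-PK, holds the ends together and phosphorylates itself and its neighbours. Ligase 4 with XRCC4 then seals the break, with XLF (the product of NHEJ1) and PAXX stabilising the aligned ends. This route works throughout interphase and repairs most breaks made by ionising radiation in human cells. It competes with homologous recombination, for which the ends must first be resected, and 53BP1 with RIF1 and shieldin opposes that resection.

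Irradiated cells had lower signals for the parts that form DNA-PK and for RIF1, and no call for the ligation parts. Of the 10 genes, 4 fell (PRKDC, XRCC6, RIF1 and XRCC5), 0 rose and 6 did not pass the test, by limma with Benjamini-Hochberg adjustment over all transcript clusters and a threshold of 0.05. In the upward direction 2 genes had an unadjusted p under 0.05, and the trended and unmoderated fits called 0. The shares that follow are for adjusted calls and are no background for that unadjusted count. Among all 22411 genes with 1 symbol, 5.52% were called lower and 3.65% higher, together 9.18% (2.8% and 2.25% of all transcript clusters, together 5.05%). The 4 that fell had 64.0% to 70.6% of their control signal. The median difference over the 10 was -0.14, against 0.01 over all genes with 1 symbol, and 7 of the 10 differences were negative. Groups did not overlap for 8 of the 10, against 35.1% of those genes and 24.6% of all transcript clusters. These shares cover genes of every signal level, and a share among genes as bright as the 10 is not given. A lower array signal in a bulk culture cannot tell less RNA in every cell from fewer cells of a kind that holds more of it.

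**Figure D1:**
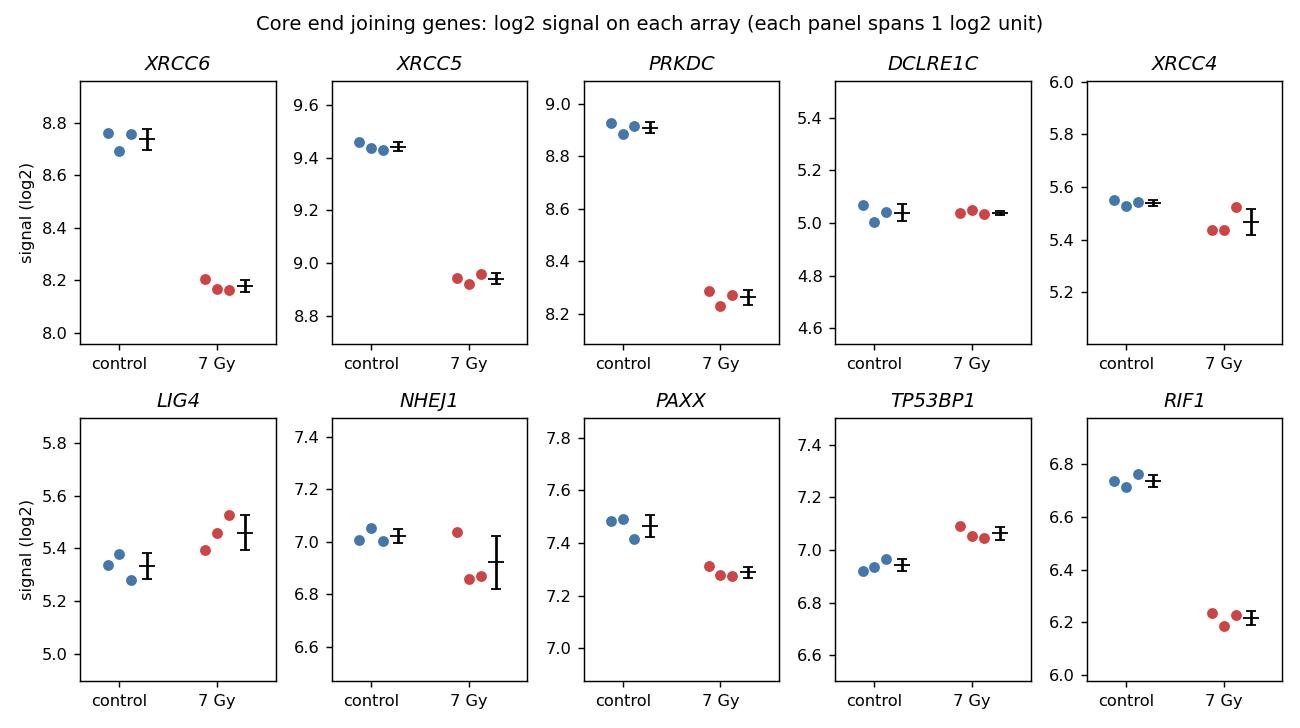
Log2 signal of the 10 core end joining genes on each array, 3 control (blue) and 3 irradiated with 7 Gy (red); the vertical axis of each panel spans 1 log2 unit, and the black marks are the mean with the SD (n = 3). In XRCC6, XRCC5, PRKDC and RIF1 the red points lie 0.47 or more below the blue ones, and in the other panels the groups lie close together or overlap. Levels are not comparable between genes, since each feature has its own probes.

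The Ku subunits fell together. XRCC6, which encodes Ku70, had 8.76, 8.69 and 8.76 on the control arrays and 8.21, 8.17 and 8.16 on the irradiated arrays. Every irradiated array was below every control array, and the gap between the groups (0.48) was over 10 times the larger SD (0.04). The difference was -0.56 (SE 0.04, 95% confidence interval -0.66 to -0.45, limma adjusted p = 0.00109), which is 1.47-fold lower.

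XRCC5, which encodes Ku80, had 9.46, 9.44 and 9.43 without radiation and 8.94, 8.92 and 8.96 after 7 Gy. The groups were again apart, by 0.47. Its difference was -0.50 (SE 0.04, interval -0.60 to -0.40, limma adjusted p = 0.00118), or 1.42-fold lower. The within-array difference between XRCC6 and XRCC5 shifted by -0.05 (exact permutation p = 0.2, two-sided, adjusted p = 0.2 over the 5 pairs compared), and the shifts between single irradiated and single control arrays ran from -0.12 to 0.01. With 3 against 3 arrays this test cannot go below 0.1, so it does not show that both fell equally. A pseudogene copy of XRCC6 on the array, XRCC6P5, had a mean of 3.76 in control cells and 3.64 in irradiated cells, close to the background median (difference -0.13, limma adjusted p = 0.307).

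PRKDC, which encodes the kinase subunit DNA-PKcs, fell the most of the 10. It had 8.93, 8.89 and 8.91 in control cells against 8.29, 8.23 and 8.27 in irradiated cells. The control arrays spread by an SD of 0.02 and the irradiated arrays by 0.03, while the groups stood 0.60 apart. Its difference of -0.64 (SE 0.04, interval -0.75 to -0.54, limma adjusted p = 5.60e-04) leaves 64.0% of the control signal and lies at percentile 0.567 of the differences of all genes with 1 symbol. The gene body of PRKDC lies within 1000 bases of that of MCM4, a subunit of the replicative helicase. MCM4 had 8.09, 8.12 and 8.21 without radiation and 7.07, 7.17 and 7.22 with it, which leaves 50.5% of its control signal (difference -0.99, SE 0.06, limma adjusted p = 3.80e-04).

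DCLRE1C encodes Artemis, the nuclease that DNA-PK activates to open hairpins and trim ends. Its signals were 5.070, 5.005 and 5.042 in control cells and 5.039, 5.047 and 5.032 in irradiated cells. The groups overlapped and their means were equal to 2 decimals. The difference was 0.00 (SE 0.04, interval -0.10 to 0.10, limma adjusted p = 0.997). The within-array difference between PRKDC and DCLRE1C shifted by -0.65, with shifts between single arrays of -0.70 to -0.61. The exact permutation p was 0.1, which is the smallest that 3 against 3 arrays can give, and 0.167 after adjustment over the 5 pairs.

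**Figure D2:**
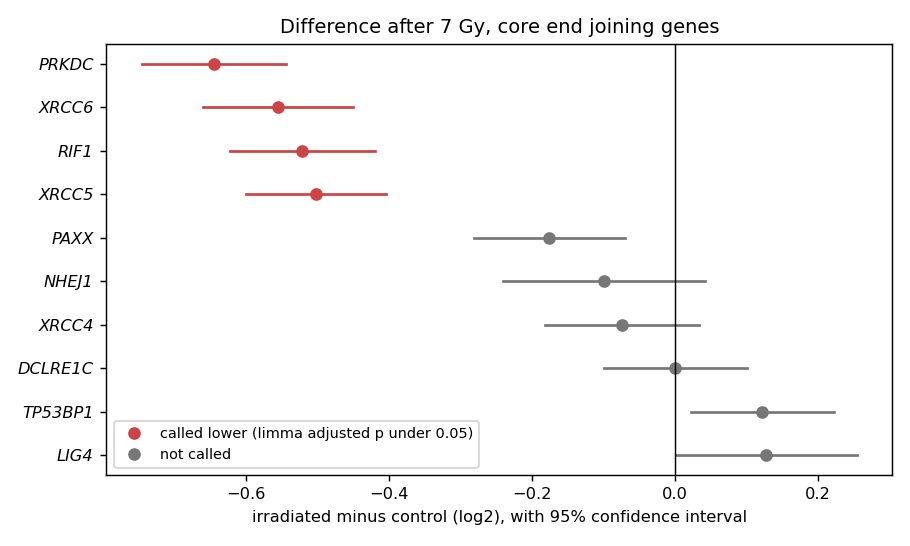
Irradiated minus control difference of each of the 10 genes on the log2 scale (points) with the 95% confidence interval of the limma fit (lines), ordered by size; red marks the genes called lower. The intervals of the 4 called genes run from -0.75 to -0.40, and those of the other 6 from -0.28 to 0.25.

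The ligation genes did not pass the test in either direction. LIG4, the ligase that seals the break, had 5.34, 5.38 and 5.28 in control cells and 5.39, 5.46 and 5.53 in irradiated cells. The groups were 0.02 apart, less than either SD (0.05 and 0.07). The difference was 0.13 (SE 0.05, interval 0.00 to 0.25, limma adjusted p = 0.266). XRCC4, the scaffold that stabilises the ligase, had 5.55, 5.53 and 5.54 against 5.44, 5.44 and 5.52. Irradiated replicate 3 was close to the controls, and the difference was -0.07 (SE 0.05, interval -0.18 to 0.03, limma adjusted p = 0.453). Relative to XRCC4 on the same array, LIG4 was 0.20 higher after irradiation (shifts between single arrays from 0.10 to 0.29, exact permutation p = 0.1, the smallest possible, and 0.167 adjusted).

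NHEJ1 encodes XLF, which forms filaments with XRCC4 along the aligned ends. Its values were 7.01, 7.05 and 7.00 in control cells and 7.04, 6.86 and 6.87 in irradiated cells. Irradiated replicate 1 lay among the controls, which gave the largest SD of the 10 genes (0.10). The difference was -0.10 (SE 0.06, interval -0.24 to 0.04, limma adjusted p = 0.440).

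PAXX encodes a structural relative of XRCC4 and XLF that binds Ku. It had 7.48, 7.49 and 7.42 without radiation and 7.31, 7.28 and 7.28 with it. The groups were 0.10 apart, and the difference was -0.18 (SE 0.04, interval -0.28 to -0.07). The limma adjusted p was 0.0797 and did not pass, but it passed with an intensity trend in the variance model (limma adjusted p = 0.0405) and with dim features left out (0.0478). Over all settings tried it ran from 0.0405 to 0.241. The shift of PAXX relative to NHEJ1 was -0.08, with single-array shifts from -0.20 to 0.01 (exact permutation p = 0.2, adjusted 0.2).

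The end protection genes had differences of opposite sign. TP53BP1 encodes 53BP1, a chromatin reader that gathers at breaks. It had 6.92, 6.94 and 6.97 in control cells and 7.09, 7.05 and 7.05 in irradiated cells. Each irradiated array was above each control array, by 0.08 or more, and the difference was 0.12 (SE 0.04, interval 0.02 to 0.22). With a limma adjusted p of 0.184 it did not pass.

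RIF1 is the effector that phosphorylated 53BP1 recruits, and it also sets the timing of replication origins. It fell from 6.74, 6.72 and 6.76 to 6.24, 6.19 and 6.23, with the groups 0.48 apart. The difference was -0.52 (SE 0.04, interval -0.62 to -0.42, limma adjusted p = 0.00116), or 1.44-fold lower. Within arrays, RIF1 shifted by -0.64 relative to TP53BP1, from -0.68 to -0.60 between single arrays (exact permutation p = 0.1, the smallest possible, adjusted p = 0.167), and the limma intervals of the 2 genes do not overlap.

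**Figure D3:**
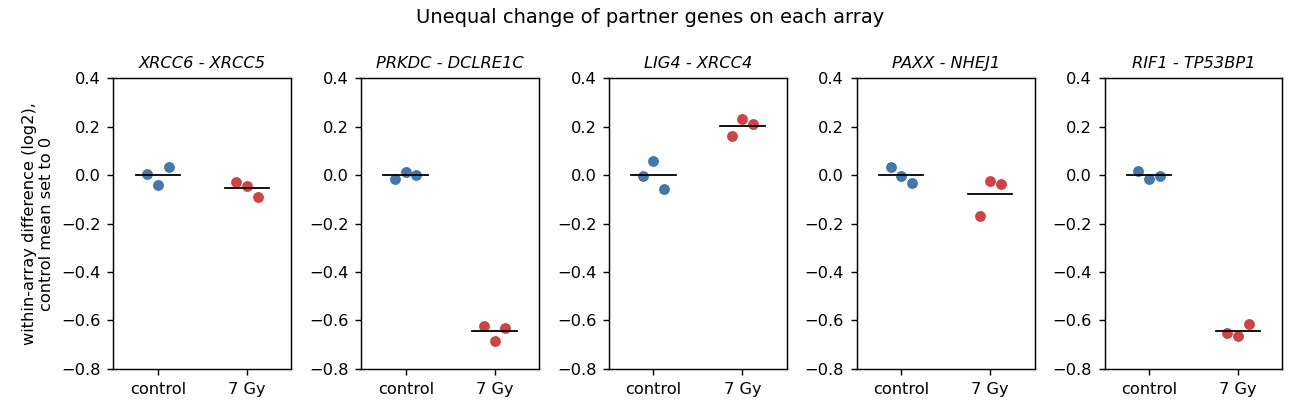
Within-array log2 difference between the genes of 5 partner pairs, with the mean of the 3 control arrays (blue) set to 0 and the 3 irradiated arrays (red) on the same scale; black lines are group means. PRKDC against DCLRE1C and RIF1 against TP53BP1 shifted by -0.65 and -0.64, LIG4 against XRCC4 by 0.20, while the groups overlap for XRCC6 against XRCC5 and for PAXX against NHEJ1.

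The 4 genes that fell did so by similar amounts. Their differences ran from -0.64 to -0.50, no replicate SD among them exceeded 0.04, and their mean signals were 6.48 to 9.19. The 6 that did not pass had mean signals of 5.04 to 7.38 and differences of -0.18 to 0.13. All 10 were above the background median of 3.74, as were 18442 of the 22411 genes with 1 symbol. The 23 background control features ran from 2.17 to 11.7, so lying above their median does not show detection.

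Outside the gene lists, the genes with the profile closest to the mean of PRKDC, XRCC5 and XRCC6 were EBP, RPA1, FAM20B, NUP205 and CSE1L. Likeness was the Euclidean distance between the 6-array profiles, each centred on its own mean, among 10424 genes with a mean signal of 6 or more. EBP, a cholesterol synthesis enzyme, was nearest at a distance of 0.03 (difference -0.57), followed by RPA1, the large subunit of the single-strand DNA binding protein RPA (0.04, difference -0.56). FAM20B, a xylose kinase of proteoglycan synthesis, NUP205, a nuclear pore subunit, and CSE1L, an export receptor, had differences of -0.58, -0.60 and -0.53. RIF1, which was not part of the reference, lay at a distance of 0.06, with 0.106% of the candidates nearer. With 2 groups and small replicate SDs, this distance mostly restates the size of the difference (-0.52 for RIF1) and is not separate evidence of likeness. PAXX, the next of the 10, lay at 0.49 with 13.7% of the candidates nearer.

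Promoter sequence was compared between members that fell and a member that did not. RefSeq start sites (GRCh38.p14) were at hand for 8 of the 10 genes, PRKDC and XRCC5 not being among them, and the 250 bases before the most upstream listed start were searched on both strands. The lines below show XRCC6 at chr22:41621045-41621294 (plus strand) and RIF1 at chr2:151409652-151409901 (plus strand), which fell, and TP53BP1 at chr15:43510641-43510890 (minus strand), the partner of RIF1 that did not pass. Each reads 5′ to 3′ toward the start site, and capitals mark motif matches on either strand.
XRCC6: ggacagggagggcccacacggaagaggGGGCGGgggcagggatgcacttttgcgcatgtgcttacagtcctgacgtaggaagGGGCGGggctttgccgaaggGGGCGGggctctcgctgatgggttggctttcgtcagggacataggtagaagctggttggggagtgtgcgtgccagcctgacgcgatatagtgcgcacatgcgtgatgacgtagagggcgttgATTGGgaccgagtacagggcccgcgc
RIF1: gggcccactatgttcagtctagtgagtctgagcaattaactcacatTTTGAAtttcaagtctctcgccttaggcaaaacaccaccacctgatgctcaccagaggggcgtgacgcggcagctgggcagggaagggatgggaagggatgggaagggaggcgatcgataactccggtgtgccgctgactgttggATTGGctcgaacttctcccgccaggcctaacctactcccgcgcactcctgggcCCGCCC
TP53BP1: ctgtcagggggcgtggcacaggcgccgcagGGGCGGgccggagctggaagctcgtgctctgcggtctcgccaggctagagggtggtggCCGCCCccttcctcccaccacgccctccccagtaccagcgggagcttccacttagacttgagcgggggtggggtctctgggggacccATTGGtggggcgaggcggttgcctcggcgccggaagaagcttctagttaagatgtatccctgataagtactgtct
The capitals are the GC box GGGCGG, the NF-Y element CCAAT and, in RIF1, the cell cycle element TTTGAA (CHR), and no matches overlapped. A GC box was present in 7 of the 8 searched promoters, against 42.6% of the 35116 RefSeq promoters of the same length. The 35116 count every listed start of a gene. GC content was 58.4% to 75.6% in the searched promoters except DCLRE1C (45.6%), against a median of 58% over all. The GC box share was not adjusted for this. CCAAT was present in 4 of 8 (XRCC6, RIF1, TP53BP1 and DCLRE1C) against 32% of all, and TTTGAA in 1 of 8 (RIF1) against 13.3%. None of 4 E2F motifs (TTTGGCGC, TTTCCCGC, TTTGGCGG and TTTCGCGC) occurred in any of the 8, and 2.83% of all promoters held at least 1 of them. XRCC6 and RIF1, which fell, and TP53BP1 and DCLRE1C, which did not pass, hold both the GC box and CCAAT letters. XRCC4, LIG4, NHEJ1 and PAXX, which also did not pass, hold no CCAAT, and LIG4 has no match at all. Whether the motifs bear on the differences was not tested. A match describes the sequence and is not evidence of binding.

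Some of the 8 members with listed start sites have a neighbour that is transcribed in the opposite direction from a start within 1000 bases. These neighbours did not pass the test, and of them DESI1 alone lies beside a member that fell. PRKDC and XRCC5 had no listed start, so the search did not cover them. MCM4, beside PRKDC by gene body, was called lower, as given above (difference -0.99). DESI1, whose start lies 252 bases from that of XRCC6, had a difference of -0.03 (SE 0.06, limma adjusted p = 0.861). TMEM167A beside XRCC4 had -0.11, ABHD13 beside LIG4 had 0.06 and MAP1A beside TP53BP1 had 0.04, with limma adjusted p of 0.294, 0.718 and 0.707.

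The wider end joining genes were lower in part. Of 31 measured genes in 4 further lists, 10 fell, 0 rose and 21 did not pass, and the median difference was -0.06. Over all genes with 1 symbol, 5.52% were called lower and 3.65% higher, so the absence of a rise among 31 genes is near the background share. SHLD3 had no feature with its symbol alone.

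Among 11 end processing and accessory genes, 2 fell (background 5.52%) and the median was -0.01. TDP1, which removes topoisomerase 1 remnants from ends, had 7.17, 7.23 and 7.25 in control cells and 6.71, 6.78 and 6.78 in irradiated cells (difference -0.46, SE 0.05, limma adjusted p = 0.00279). WRN, a helicase and exonuclease that Ku stimulates, fell by 0.27 on the log2 scale (SE 0.06, limma adjusted p = 0.0396). Each fit that left out a single array lost the WRN call (limma adjusted p at most 0.151) and kept 1 gene of the 11. The background share is from the fit to all arrays, and none is given for these smaller fits.

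Among 11 genes of 53BP1 recruitment and shieldin, 5 fell (background 5.52%), and 10 of the 11 differences were negative (median -0.16). H2AX, the histone variant phosphorylated around breaks, had 8.51, 8.62 and 8.70 in control cells and 7.79, 7.71 and 7.84 in irradiated cells (difference -0.83, SE 0.06, limma adjusted p = 8.50e-04), a 1.78-fold decrease. PAXIP1, which encodes PTIP, another effector of 53BP1, fell by 0.39 (SE 0.05) and RNF168, the ubiquitin ligase whose mark 53BP1 reads, fell by 0.30 (SE 0.05). The other 2 that fell, named after their values were seen, were the shieldin subunits SHLD2 (-0.27) and MAD2L2 (-0.23). Leaving out single arrays left 2 or 3 calls in this list. The count was 3 without control replicate 1 and 2 without any other array, and H2AX and PAXIP1 were called in each of these fits. No share over all genes is given for fits without an array. RNF168, SHLD2 and MAD2L2 had limma adjusted p up to 0.0953, 0.0854 and 0.136. MDC1 and RNF8 act between H2AX and RNF168 and were likewise chosen with their values in view. Their differences, 0.08 and 0.00, did not pass.

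In alternative end joining, which uses short homologies exposed by resection, 3 of 6 genes fell (background 5.52%, median -0.24). FEN1, a flap endonuclease that also matures Okazaki fragments, had 8.24, 8.35 and 8.36 in control cells against 7.35, 7.41 and 7.52 in irradiated cells (difference -0.89, SE 0.06, limma adjusted p = 6.82e-04). PARP1, the break sensor that makes poly(ADP-ribose), fell by 0.69 (SE 0.05, limma adjusted p = 6.80e-04), and POLQ, the polymerase theta of this route, fell by 0.41 (SE 0.06, limma adjusted p = 0.00890). The ligase LIG3 and its partner XRCC1, chosen with their values in view, did not pass (differences of -0.07 and 0.15). The 3 genes of V(D)J recombination, the lymphoid process that relies on end joining, lay near or below the background median, with DNTT at 3.92 and RAG2 at 3.23 in control cells. By limma 0 of the 3 were called, 0 had an unadjusted p under 0.05, and 0 were called by the unmoderated test or with the trend. With 9.18% of all genes with 1 symbol called, 0 of 3 is near the background share and does not show that these genes were unchanged.

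Genes of S phase moved in the same comparison. Of 18 measured S phase genes, 15 fell, 0 rose and 3 did not pass, with a median difference of -0.68, against 5.52% called lower and 3.65% higher among all genes with 1 symbol. RRM2, a subunit of ribonucleotide reductase, fell by 1.57 (SE 0.05), and the helicase subunit gene MCM6 fell by 1.49 (SE 0.06) on the log2 scale. CCNE2, which encodes cyclin E2, fell by 1.18 (SE 0.06). The mean log2 signal of the list was 7.78 to 7.86 on control arrays and 7.04 to 7.08 on irradiated arrays. For the 10 core end joining genes the same mean was 7.11 to 7.13 and 6.86 to 6.90. The part of the S phase shift in the fall of PRKDC, XRCC5, XRCC6 and RIF1 was not tested.

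**Figure D4:**
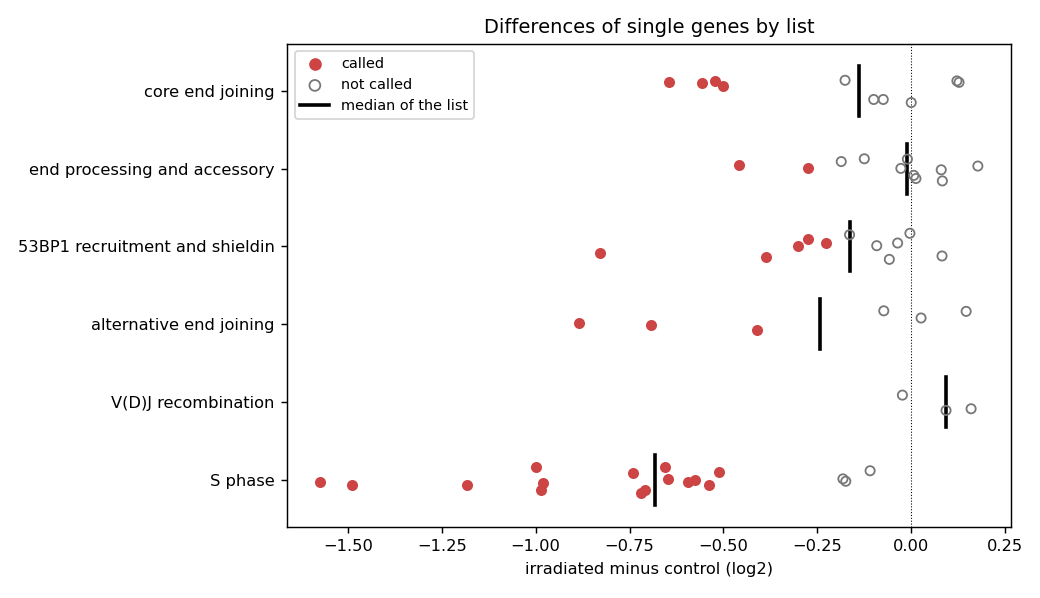
Irradiated minus control difference (log2) of each measured gene in 6 lists; filled red points passed the test, open grey points did not, black bars are list medians, and the vertical scatter only separates points. The core list divides into 4 genes at or below -0.50 and 6 genes at -0.18 or above, and the S phase list lies lower, with a median of -0.68.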

How the data were processed

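Biotin-labelled RNA of 6 H460 cultures (3 control, 3 irradiated), isolated by TRIzol according to the labels, was hybridised. The authors deposited a log2 gene-level signal for each feature on each array. The sample descriptions name an RMA gene-level signal, while the submitters' processing notes name MAS5, without a version. Which made the values is not settled, and no source used here names the probe annotation build. Signals were used as deposited. Arrays have no read depth, and their number limits the precision.

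Gene symbols came from the platform annotation, updated through RefSeq (GRCh38.p14), with the brightest single-symbol feature kept per gene. Differences were fitted with limma 3.58.1 in R 4.3.3 (lmFit, eBayes, two-sided) over 67528 transcript clusters, without the other features of the 70523 in the table. The fit was tested on simulated data with independent noise and few changed features, which does not show that the calls hold here. Partner pairs were compared with an exact permutation test. The members, the 10 gene lists and the 5 pairs were chosen with earlier results of these data known. From each further list the text names up to 3 called genes of largest change, or the 2 brightest if none was called. Alternatives were other variance models, scaling, filters, a replicate block and leaving out each array.

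Same-numbered replicates did not deviate together (correlations of deviations from group means -0.01, -0.07 and -0.04), so the numbers were not used as pairs. P-values cover the spread between these cultures.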

Additional observations from a re-analysis of the deposited data

How the results depend on the processing

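Under 14 other settings for each of the 10 genes (140 comparisons), 138 stayed on the same side of the threshold. The 2 exceptions were PAXX with the intensity trend and with dim features left out, which raised the number of members called lower from 4 to 5. With the replicate block, 4 members were called lower and 0 higher, as without it, and the number was 4 on leaving out any 1 array. DCLRE1C, which was never called, took either sign (-0.02 to 0.02). The largest adjusted p (limma) of the called members over all settings was 0.0135 for PRKDC, 0.0213 for XRCC5, 0.0186 for XRCC6 and 0.0198 for RIF1. Each member has 1 feature, so averaging features changed nothing. Of 45 recomputed pair differences, 44 moved by less than 1 SD, and PRKDC against DCLRE1C was -0.58 with quantile normalization. On leaving out single arrays that pair ran from -0.66 to -0.63, RIF1 against TP53BP1 from -0.66 to -0.63, LIG4 against XRCC4 from 0.17 to 0.23, PAXX against NHEJ1 from -0.10 to -0.03 and XRCC6 against XRCC5 from -0.07 to -0.04. The number called among the 53BP1 and shieldin genes was 3 by the unmoderated test and 2 with the replicate block, against 5. Among the end processing genes it was 1 in both, against 2, and among the alternative end joining genes 2 by the unmoderated test, against 3. The share of all genes called under these settings is not given, so these lower counts have no background beside them. Median centring and quantile normalization moved the median difference over all transcript clusters by under 0.03. With quantile normalization the differences of PRKDC, XRCC5, XRCC6 and RIF1 were -0.60, -0.46, -0.52 and -0.52, against -0.64, -0.50, -0.56 and -0.52 without it. With 3 arrays a group, no pair could pass its exact test.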
